A study of Mus musculus with 10 samples.

Results

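Presentation of peptides to T cells by the major histocompatibility complex (MHC) was described here through the genes whose symbol begins with H2-, the mouse MHC prefix, together with B2m, Tap1, Tap2, Tapbp, Tapbpl, Erap1, Nlrc5, Cd74 and Ciita. This rule used names only, no measured value, and found 47 of the 21959 genes in the expression table. The RNA came from 10 tumors that 4T1 carcinoma cells, which stand in for triple-negative disease of the breast, had formed in female BALB/c mice aged 5 to 6 weeks. All mice received the cells by subcutaneous injection into the abdomen. For 21 days, 5 of them could run as fast and as far as they chose (exercise group, E), and the other 5 had no such intervention (NE). The distance run by each mouse was not analysed here. The labels name Trizol for RNA extraction, while the study's methods name a column kit. Each library was made from tumor tissue in which 4T1 cells and cells of the host were not separated. Expression was given as a read count and as FPKM, the count scaled by gene length and by the counted reads of the library. CPM denotes the count scaled by the library size alone, after TMM correction.

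MHC class I molecules consist of a heavy chain, encoded by H2-K1 and H2-D1 for the classical forms, and of beta-2 microglobulin (B2m), and are made by almost all nucleated cells. Peptides cut in the cytosol are pumped into the endoplasmic reticulum by TAP, trimmed by ERAP1 and loaded with the help of tapasin and its relative TAPBPL, and NLRC5 is the transcriptional coactivator of these genes. Class II molecules pair an alpha with a beta chain, are made mainly by dendritic cells, macrophages and B cells, are escorted by the invariant chain (Cd74) and loaded by H2-DM, and depend on the coactivator CIITA.

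The classical class I genes stood at nearly the same level in all 10 tumors, whereas class II genes differed severalfold from tumor to tumor, and neither class was called different between E and NE. The FPKM of H2-K1 spanned a 1.29-fold range over the tumors and that of H2-Ab1 an 8.44-fold range, with tumor NE1 the lowest in FPKM for each of the 10 class II genes with enough reads to be tested. Without NE1, the range of H2-Ab1 was 2.63-fold. Of the 11 tested non-classical class I genes, 6 stayed within a 1.41-fold range, while H2-Q7, H2-Q6, H2-T24, H2-Q10 and H2-M2 varied 2.18-fold, 2.97-fold, 3.26-fold, 11-fold and 17.3-fold. The range of H2-M2 was 7.73-fold without NE1, and H2-Q10 stood at 1.09 FPKM in E5 and 0.0987 to 0.341 in the other tumors. With edgeR's quasi-likelihood test, 0 of the 31 members with enough reads reached a fold change of 2 and a false discovery rate (FDR) of 0.05, beside 0 of all 13517 genes tested (0%). At an unadjusted p of at most 0.05, 1 member was lower in E (Tapbpl) and 0 were higher, beside 2.29% of all genes tested that were lower and 2.57% that were higher. In 0 members did the CPM of both groups fail to overlap, beside 0.725% of all genes. Likewise 0 members were called by the edgeR exact test, by DESeq2, by limma-trend on log2(FPKM + 1) and by limma-voom with weighted samples. These gave 0, 1, 1 and 3 members at an unadjusted p of at most 0.05, beside 2.60%, 3.85%, 4.76% and 13.3% of all genes in each fit. DESeq2 took in all 21959 genes and the other 3 tools the same 13517. Only the 17925 genes with a read could be given a p by DESeq2, and over these its share is higher than 3.85%.

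The counted reads per tumor ranged from 15045613 in E5 to 23092251 in NE1. A count of 0 allows at most 3 reads, which is 0.195 CPM in E5 and 0.127 CPM in NE1. Of the 47 members, 26 had a mean FPKM of at least 1, 13 had at most 10 reads in all tumors together, and 5 had 0 reads in every tumor. The rule took in 2 classical class I genes, 25 non-classical class I genes, 6 genes of the class I machinery, 5 class II chains, 6 class II accessory genes, 2 transactivators and H2-Ke6, whose product is a steroid dehydrogenase and not an MHC molecule. The number tested was 2 of 2, 11 of 25, 6 of 6, 4 of 5, 6 of 6, 2 of 2 and 0 of 1 in that order. H2-L, a further classical class I gene of BALB/c mice, is not in the table, and where its reads were counted was not tested. In the coordinates of the authors' table, whose genome build is not given in the sources used here, 41 members lie on chromosome 17 between 34134873 and 37794443.

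Several libraries stood apart in their cell type markers. Summed over 8 skeletal muscle genes, NE4 had 25260.2 CPM, most of all from Myh4, against 5.73 to 3542 in the other tumors. The sum of 5 fibroblast genes, led by Col3a1, was 15250.4 CPM in E5 and 964 to 4971 in the others, with NE1 the lowest. Of 6 epithelial markers, Cdh1 and Epcam were tested, at 6.83 to 20.6 and 0.525 to 3.14 CPM. Krt8 and Krt18, keratins of simple epithelia, reached at most 1.24 and 2.20 CPM, so that the defining keratins of a carcinoma line were close to absent from these libraries. In NE5 alone Krt14 and Krt5 stood at 54.2 and 28.9 CPM, together with 5 genes of differentiated keratinocytes at a summed 39.3 CPM, led by Krt1, against at most 1.87 elsewhere. The part of these markers in the results below was not tested.

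H2-D1, a classical heavy chain, had an FPKM of 1169, 1017, 933, 967 and 902 in E1 to E5 and 989, 881, 949.8, 909 and 1006 in NE1 to NE5. H2-K1, the other classical heavy chain, stood at an FPKM of 799.8, 695, 641, 661 and 627 in E1 to E5 and 652, 622, 686, 659 and 689.8 in NE1 to NE5. E1 was the highest tumor for both genes, and the ranges of E and NE overlapped. The mean FPKM of H2-D1 was 998 ± 105 in E and 947 ± 52.7 in NE (5 tumors each, ± SD), and that of H2-K1 685 ± 69.2 in E and 662 ± 27.9 in NE. The log2 fold change of E over NE was 0.044 (SE 0.072) for H2-D1 and 0.017 (SE 0.071) for H2-K1, with an FDR of 0.944 and 0.979 in edgeR's quasi-likelihood test. The 95% interval of the ratio of E to NE ran from 0.908 to 1.13 for H2-K1, a narrow interval around 1 at this depth, and without E1 the estimates of both genes took the opposite sign. The ratio of H2-K1 to H2-D1 in FPKM was 0.659 to 0.725 over the 10 tumors. Both genes together took 0.410% to 0.537% of all counted reads.

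B2m, the light chain shared by all class I molecules, was the most abundant member per length, with an FPKM of 2025, 2098, 2208, 2188 and 1963 in E1 to E5 and 1597, 2204, 2527, 2023 and 2344 in NE1 to NE5. NE1 was the lowest and NE3 the highest tumor, and all 5 E tumors lay between them. The log2 fold change was -0.062 (SE 0.11, FDR 0.947 with edgeR). Per length, B2m exceeded H2-D1 by a factor of 1.62 to 2.66, smallest in NE1.

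The peptide transporter subunits Tap1 and Tap2 ranged from 43.8 to 61.0 and from 24.6 to 31.1 FPKM, and their ratio in FPKM stayed between 1.69 and 1.97. Tapasin (Tapbp), which bridges TAP and the empty heavy chain, ranged from 166 to 207 FPKM. The peptidase Erap1 ranged from 20.9 to 31.6 FPKM, with the lowest values in NE1 and E1. These 4 genes had log2 fold changes between -0.10 (Erap1, SE 0.13) and 0.024 (Tapbp, SE 0.069). In the table's coordinates Erap1 overlaps Cast, Tap1 overlaps Psmb9 on the opposite strand and Tapbp overlaps Zbtb22, and since the use of strand in counting is not stated, reads of overlapping genes cannot be told apart.

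Tapbpl, the tapasin relative that edits the peptides of class I molecules, was the member with the smallest unadjusted p. Its FPKM was 26.7, 25.2, 21.7, 23.3 and 23.2 in E1 to E5 and 25.4, 26.8, 30.3, 27.9 and 24.7 in NE1 to NE5. The E values lay toward the lower end, while E1 and E2 lay above NE5, so that the groups overlapped. The mean was 24.0 ± 1.94 in E and 27.0 ± 2.22 in NE (5 tumors each, ± SD), a difference of about 1 to 2 SD. The log2 fold change was -0.20 (SE 0.075, 95% interval -0.37 to -0.035), with an FDR of 0.897 in edgeR's quasi-likelihood test and p = 0.0317 in an exact two-sided permutation test over all assignments of the tumors to groups, where 0.00794 is the smallest p possible. It is reported as a difference that did not pass the correction for 13517 genes. The count of members at an unadjusted p of at most 0.05 fell to 0 without E3, without NE3, without both E5 and NE4, with the edgeR exact test and with a block for the replicate number, while the log2 fold change of Tapbpl was -0.17, -0.16, -0.16, -0.20 and -0.20 in these fits. Tapbpl overlaps Vamp1 in the table's coordinates.

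Nlrc5, the coactivator of class I genes, had an FPKM of 24.5, 24.9, 22.5, 23.7 and 22.9 in E1 to E5 and 23.1, 21.8, 26.6, 19.4 and 22.9 in NE1 to NE5. NE4 was the lowest and NE3 the highest tumor, and E lay between them. The log2 fold change was 0.027 (SE 0.070, FDR 0.959 with edgeR).

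Among the non-classical class I genes, 9 of 25 had a mean FPKM of at least 1 and 11 of 25 had at most 10 reads in all tumors together. H2-T23, which encodes Qa-1, the ligand of CD94-NKG2 receptors on natural killer cells, was the most abundant of them with an FPKM of 114, 113, 87.5, 102 and 84.1 in E1 to E5 and 87.4, 88.9, 119, 104 and 112 in NE1 to NE5. The values of the groups covered nearly the same range. The log2 fold change of H2-T23 was -0.064 (SE 0.12, FDR 0.947 with edgeR), and its FPKM was 0.0884 to 0.125 times that of H2-D1.

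H2-M3, which presents formylated peptides, had an FPKM of 49.8, 47.0, 44.8, 44.3 and 47.6 in E1 to E5 and 41.7, 45.7, 50.1, 41.8 and 46.0 in NE1 to NE5. It varied the least of all tested members, with a standard deviation of log2(CPM + 1) of 0.083 over the 10 tumors, at the 7.26 percentile of all genes tested. H2-T22 and H2-T10, ligands of gamma delta T cells, ranged from 62.9 to 86.5 and from 6.77 to 9.47 FPKM. The Q region genes H2-Q4, H2-Q5, H2-Q7 and H2-Q6 ranged from 56.4 to 71.4, 15 to 19.0, 4.43 to 9.65 and 2.24 to 6.64 FPKM in that order. H2-T24 was the most variable of the genes above 1 FPKM in this class, at 7.88, 11.7, 3.58, 10.7 and 7.34 in E1 to E5 and 5.04, 6.10, 9.24, 9.07 and 7.44 in NE1 to NE5, with no separation of E from NE.

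Reads of these genes can be hard to assign. Of all stretches of 50 bases in the annotated transcripts (GRCm38), 36.4% of those of H2-Q5, 34.5% of H2-T22, 32.9% of H2-T10, 32.0% of H2-Q6, 26.4% of H2-Q7 and 21.8% of H2-Q4 occur in a transcript of another gene. For H2-T22 and H2-T10 the shared partner was mostly the other of the pair. The shares for H2-K1 and H2-D1 were 9.63% and 12.8%, and none of the stretches of B2m, Nlrc5, Ciita, Cd74, H2-Ab1 and H2-Eb1 was shared. The single values of H2-Q5, H2-T22, H2-T10, H2-Q6, H2-Q7 and H2-Q4 are therefore uncertain, while the shares for H2-T23 and H2-T24 were 13.6% and 3.17%. All shares were counted in the reference sequence and not in that of BALB/c mice, and the authors allowed up to 2 mismatches per read. Whether reads of BALB/c forms of H2 genes were lost or counted under another gene was not tested. A low share therefore does not secure the level of an H2 gene, or its ratio to another gene, and lost reads would be missing from a sum as well. Summing the reads of all 27 class I genes in each tumor, which does not depend on how reads were split among them, gave CPM of 6302, 5505, 5157, 5307 and 4879 in E1 to E5 and 5176, 4963, 5484, 5398 and 5638 in NE1 to NE5. E1 was again the highest tumor, and the summed levels of the groups overlapped.

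H2-M2, a class I gene of unclear function, had 3 to 44 reads per tumor and an FPKM of 0.187, 0.207, 0.594, 0.243 and 0.771 in E1 to E5 and 0.0838, 1.45, 1.25, 0.702 and 0.995 in NE1 to NE5. NE1 was the lowest and NE2 the highest tumor, and E5 lay above NE4, so that the groups overlapped. Its log2 fold change was the most negative of the members, -1.2 (SE 0.64, 95% interval -2.62 to 0.23, FDR 0.897 with edgeR), and the interval includes 0. H2-M10.3, H2-M10.4, H2-M10.5 and H2-M10.6, relatives known from the vomeronasal organ, had 0 reads in every tumor, as did H2-Ke6, which shares 70.5% of its stretches with Gm20427. The remaining low genes were H2-M5 with 73 reads over all tumors, H2-Q2 with 22, H2-M9 with 14, and H2-T3, H2-M10.2, H2-Q1, H2-Bl, H2-M11, H2-M1 and H2-M10.1 with 1 to 10.

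The classical class II chains differed widely among the tumors and moved together. H2-Ab1, the beta chain of I-A, had an FPKM of 240.3, 157, 108, 118 and 229 in E1 to E5 and 33.8, 201, 265, 285 and 174 in NE1 to NE5. H2-Aa, its alpha chain, had an FPKM of 207, 145, 111, 118 and 212 in E1 to E5 and 34.2, 196, 274, 282 and 170.0 in NE1 to NE5. H2-Eb1, the beta chain of I-E, had an FPKM of 337, 238, 171, 187 and 367 in E1 to E5 and 52.2, 303, 432, 435 and 266 in NE1 to NE5. NE1 was the lowest tumor for all 3 chains and NE4 the highest, E3 and E4 were the lowest of E, and the E values fell inside the range of NE. In these bulk samples, fewer cells that make class II and less class II RNA per cell cannot be told apart.

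Cd74, the invariant chain that blocks the groove until the endosome, had an FPKM of 617, 412, 292, 324 and 571 in E1 to E5 and 109, 503, 677, 765 and 431 in NE1 to NE5. It followed the same order of tumors as the chains at the extremes, with NE1 lowest and NE4 highest. Ciita, the coactivator of class II genes, had an FPKM of 5.12, 3.71, 2.85, 2.75 and 5.74 in E1 to E5 and 1.02, 5.20, 7.48, 7.85 and 4.71 in NE1 to NE5. Its order was again led by NE4 and NE3 and closed by NE1.

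The ratio of H2-Aa to H2-Ab1 in FPKM was 0.863 to 1.04 over the tumors, that of H2-Eb1 to H2-Ab1 1.4 to 1.63 and that of Cd74 to H2-Ab1 2.48 to 3.22. While the level of H2-Ab1 varied 8.44-fold, these ratios varied 1.2-fold, 1.16-fold and 1.3-fold. H2-Ab1 exceeded Ciita by a factor of 33.1 to 46.9 in FPKM. In contrast, the ratio of H2-Aa to the class I gene H2-D1 in FPKM ran from 0.0346 in NE1 to 0.311 in NE4.

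H2-DMa and H2-DMb1, the chains of the peptide editor H2-DM, ranged from 5.99 to 25.1 and from 16.0 to 58.0 FPKM, both lowest in NE1 and highest in NE4. The FPKM ratio of H2-DMb1 to H2-Ab1 was 0.474 in NE1 and 0.202 to 0.272 in the other 9 tumors. H2-DMb2, the second beta chain gene, ranged from 0.669 to 6.20 FPKM and shares 21.2% of its stretches with H2-DMb1, and 22.7% of the stretches of H2-DMb1 occur in a transcript of another gene, which leaves the level of each uncertain. H2-Oa and H2-Ob, which encode the inhibitor of H2-DM found mainly in B cells, ranged from 0.0923 to 0.850 and from 0.121 to 1.41 FPKM. H2-Eb2, a further beta chain gene, had 1 read in NE1 and up to 45 in the other tumors. H2-DMa overlaps Brd2 and Ciita overlaps Dexi in the table's coordinates.

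H2-Ea, the alpha chain that pairs with H2-Eb1 in the I-E molecule, had 1 read in E3 and 0 reads in each of the other 9 tumors, while H2-Eb1 had 2342 to 19397 reads. The count of 0 in NE1 allows at most 0.127 CPM there. The GRCm38 annotation lists the gene as H2-Ea-ps, a polymorphic pseudogene, and 0 of its 987 stretches of 50 bases occur in a transcript of another gene. As background, C57BL/6 mice, the reference strain, carry a silent form of the gene, whereas BALB/c mice, the strain of host and cell line here, are known to express I-E on the cell surface. The counts do not match this background, and the cause was not tested.

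**Figure D1:**
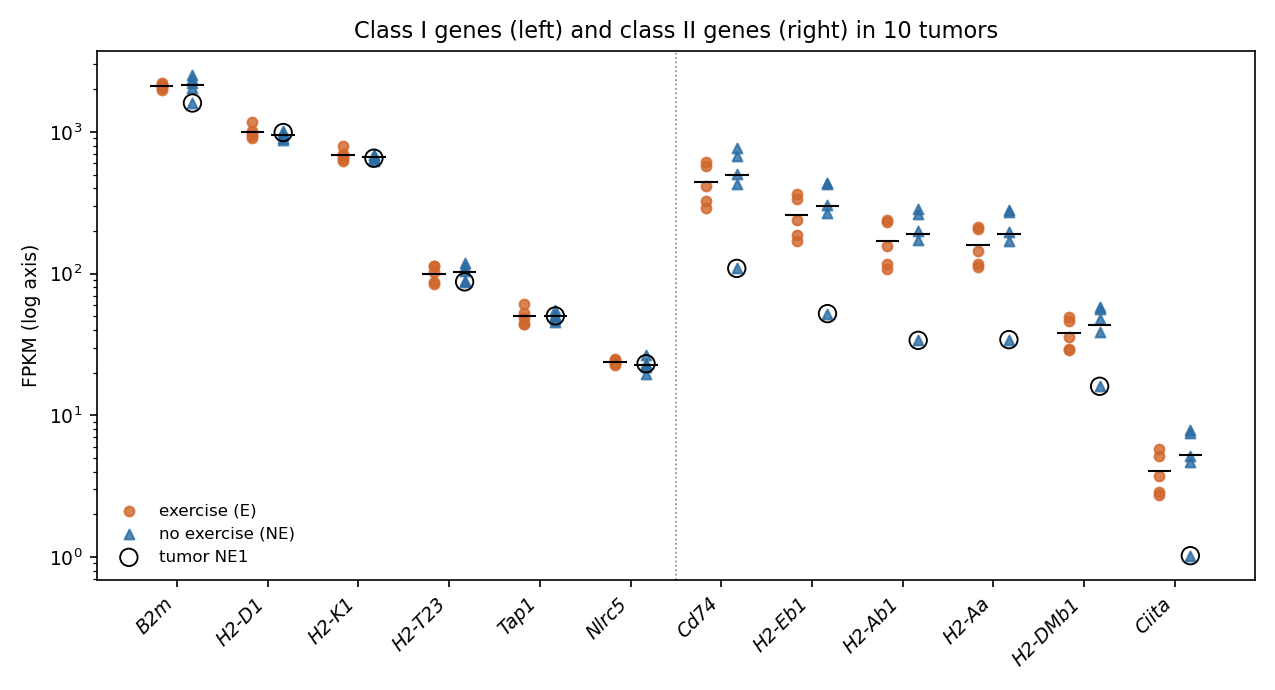
FPKM (log axis) of 6 genes of class I presentation and 6 of class II presentation in each of 5 E tumors (circles) and 5 NE tumors (triangles), with black bars for the group means and a ring around NE1. Points of a class I gene lie close together, whereas points of a class II gene spread over a 3.62-fold (H2-DMb1) to 8.44-fold (H2-Ab1) range with NE1 at the bottom.

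The spread among tumors was compared as the standard deviation of log2(CPM + 1) over all 10 tumors, without regard to group. Its median was 0.11 for the classical class I genes, 0.20 for the 11 tested non-classical genes, 0.15 for the class I machinery, 0.91 for the 4 tested class II chains and 0.66 for the class II accessory genes. Over all genes tested the median was 0.18, with quartiles of 0.12 and 0.29. H2-K1 and H2-D1 lay at the 16.7 and 19.3 percentiles of all genes tested, and H2-Ab1 and Cd74 at the 97.1 and 96.5 percentiles. Of the coactivators, Nlrc5 lay at the 15.3 percentile and Ciita at the 96.6 percentile. The class I machinery ran from Tapbp at 14.5 and Tap2 at 19.0 over Tap1 at 38.1 and Tapbpl at 39.1 to B2m at 53.6 and Erap1 at 63.9. Without NE1, an alternative chosen after seeing the data, H2-Ab1 varied 2.63-fold and stood at the 92.9 percentile, and H2-K1 at the 21.3 percentile.

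**Figure D2:**
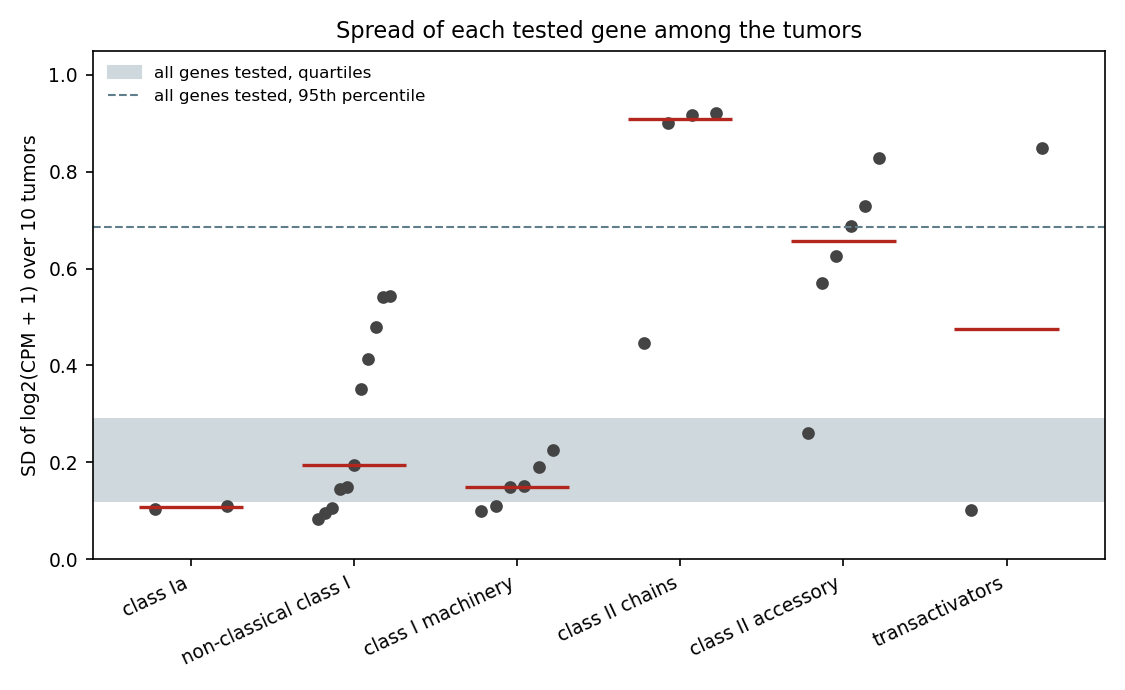
Standard deviation of log2(CPM + 1) over 10 tumors for each tested member (points) by class, with the class median (red bar), the quartiles of all genes tested (grey band) and their 95th percentile (dashed line). Class II chains H2-Ab1, H2-Aa and H2-Eb1 lie above the dashed line at 0.69, and the classical class I genes lie below the band.

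Between E and NE, the estimates for class II genes did not exceed their standard errors. H2-Ab1 averaged an FPKM of 171 ± 61.5 in E and 192 ± 99.3 in NE (5 tumors each, ± SD), Cd74 443 ± 145 in E and 497 ± 255 in NE and Ciita 4.04 ± 1.35 in E and 5.25 ± 2.73 in NE. The log2 fold changes were -0.22 (SE 0.47) for H2-Ab1, -0.32 (SE 0.46) for H2-Aa, -0.21 (SE 0.43) for Cd74 and -0.43 (SE 0.45) for Ciita, with FDRs of 0.951, 0.933, 0.950 and 0.906 in edgeR's quasi-likelihood test. For H2-Ab1 the 95% interval of the ratio of E to NE ran from 0.419 to 1.77, so that neither a lower nor a higher level in E can be excluded within it. On log2(FPKM + 1) with limma-trend, the estimates of Cd74, H2-Ab1 and H2-Eb1 turned to the opposite sign. The median log2 fold change was 0.030 for classical class I, 0.021 for non-classical class I, -0.066 for the class I machinery, -0.23 for class II chains and -0.21 for class II accessory genes, beside -0.014 over all genes tested. Of the 31 tested members, 13 had a log2 fold change above 0 and 18 below 0, beside 6221 and 7296 of all genes.

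The count of members at an unadjusted p of at most 0.05 depended on NE1, a tumor singled out after the values were seen. Without this tumor, 6 members had an unadjusted p of at most 0.05 and all 6 were lower in E (B2m, Ciita, H2-Aa, H2-DMb1, H2-M2 and Tapbpl), beside 4.09% of all genes that were lower and 5.82% that were higher. H2-Aa then averaged an FPKM of 159 ± 48.5 in 5 E tumors and 231 ± 56.1 in 4 NE tumors (SD), a log2 fold change of -0.57. For Ciita the log2 fold change was -0.68 and for H2-M2 -1.48. The smallest FDR over the members was 0.473 (edgeR), so that again 0 members were called. For B2m, Ciita, H2-Aa, H2-DMb1 and H2-M2, NE1 was the lowest NE tumor in FPKM, so leaving it out necessarily raised their NE means. Ciita and H2-Aa both moved with H2-Ab1 over the 10 tumors (r = 0.986 and 0.996), so the 6 members are not 6 separate results.

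**Figure D3:**
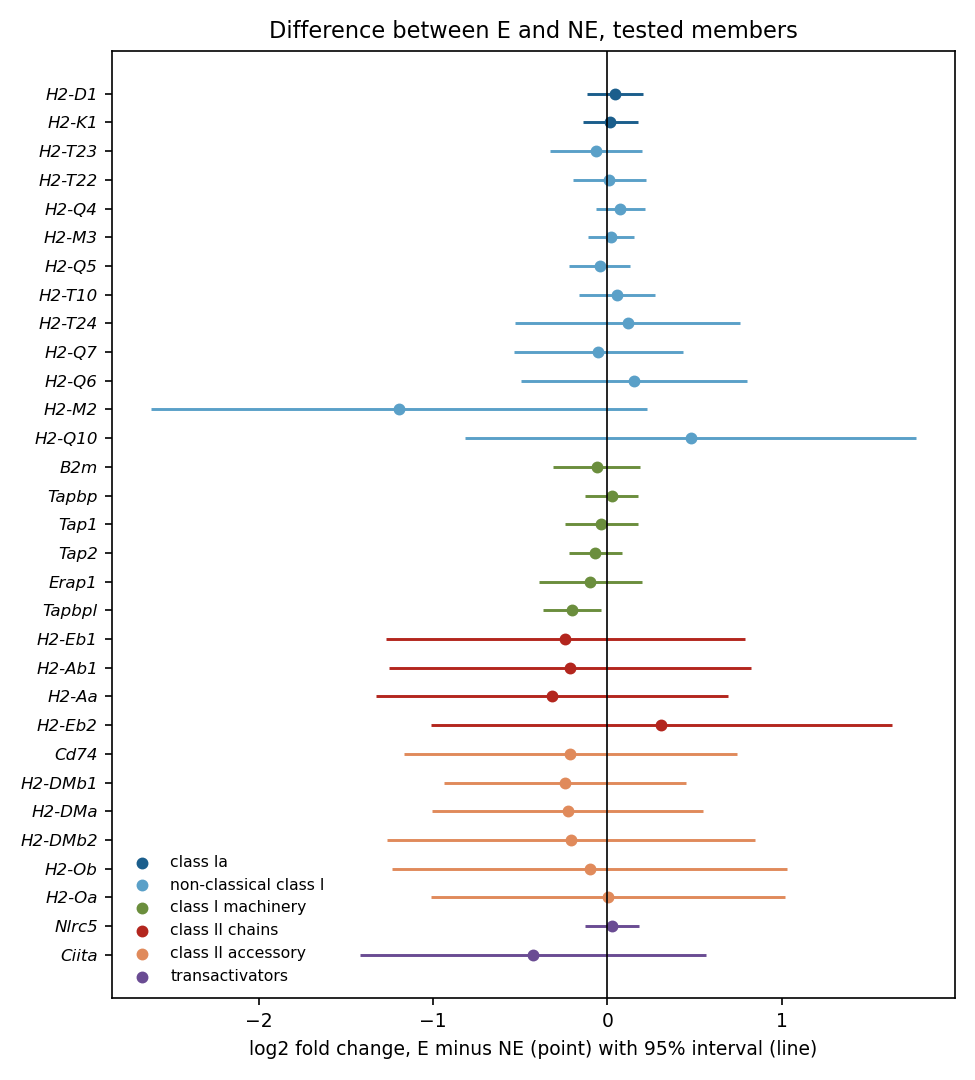
Log2 fold change of E over NE from edgeR's quasi-likelihood fit (points) with its 95% interval (lines) for the 31 tested members, ordered by class and by FPKM. Intervals of class I genes with high counts are narrow around 0, those of class II genes are wide, and Tapbpl is the gene whose interval (-0.37 to -0.035) excludes 0.

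Several markers of macrophages and other leukocytes were lowest in NE1, where class II RNA was lowest, and their part in the result was not tested. All 9 macrophage and monocyte markers were in the table and were tested, with C1qb the most abundant, and their summed CPM was 1833, 1565, 1232, 1474 and 2298 in E1 to E5 and 596, 1571, 1770.5, 2075 and 1643 in NE1 to NE5. NE1 was the lowest tumor, as for class II, while the highest was E5 and not NE4. Ptprc, the pan-leukocyte marker CD45, stood, in CPM, at 124, 138, 134, 168 and 172 in E1 to E5 and 56.9, 168, 222, 188 and 178 in NE1 to NE5. Here too NE1 was the lowest, and NE3 the highest.

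All 9 dendritic cell markers were tested, and their summed CPM was 317, 329, 323, 304 and 363 in E1 to E5 and 341, 349.7, 353, 299 and 318 in NE1 to NE5. This sum did not fall in NE1. Its most abundant gene, Fscn1, was highest there at 274 CPM (181 to 236 elsewhere), while each of the other 8 markers was lowest there. The gap was wide for Xcr1, Siglech and Cd209a, at 0.127, 0.0425 and 0.255 CPM in NE1 and 0.960 to 3.48, 0.479 to 5.78 and 2.36 to 11.2 elsewhere. It was narrower for Flt3 (1.87 against 4.07 to 9.83) and Ccr7 (3.23 against 7.60 to 16.1), and slight for Itgax (50.1 against 51.5 to 86.5), Clec9a (3.06 against 3.73 to 7.72) and Zbtb46 (8.15 against 8.48 to 13.9). Of 5 B cell markers, 3 were tested, Pax5 was the most abundant, and the summed CPM was 7.85, 8.92, 7.33, 11 and 11.3 in E1 to E5 and 7.81, 7.98, 12.4, 10.8 and 9.84 in NE1 to NE5. Ms4a1, a defining B cell marker, reached at most 1.45 CPM.

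The 10 markers of T and natural killer cells, led by Gzmb, summed to 179 to 357 CPM, with E5 lowest and E4 highest. This sum did not fall in NE1, where it was 334 CPM. Markers of neutrophils (6 genes, led by Csf3r) summed to 8.79 to 279.6 CPM, with E5 highest and NE1 lowest. Without E5, the E tumors had 12.9 to 30.7 CPM of these genes, within the 8.79 to 45.5 of NE. Markers of endothelium (4 genes, led by Pecam1) summed to 98.9 to 184 CPM. At an unadjusted p of at most 0.05, 2 of the 5 tested neutrophil genes were higher in E and 1 of the 2 tested epithelial genes (Epcam) was lower, beside 2.57% and 2.29% of all genes, and 0 genes of the lists of macrophages, dendritic cells, B cells, T and natural killer cells, fibroblasts, endothelium, muscle and keratinocytes and of Ptprc reached it.

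Relations across the 10 tumors were computed on log2(CPM + 1) for 16 pairs of genes, with 100000 permutations each and Benjamini-Hochberg adjustment over the 16 pairs, of which 14 are given here. Ciita rose and fell with its target H2-Ab1 over the tumors (r = 0.986 (permutation p = 1e-05, adjusted 5.33e-05) and rho = 0.952 (p = 0.00016, adjusted 0.000853), and r = 0.964 without E4 and NE1), where 1e-05 is the smallest p that these permutations can give. Ciita and Cd74 gave r = 0.987 (permutation p = 1e-05, adjusted 5.33e-05) and rho = 0.952 (p = 0.00016, adjusted 0.000853), and r = 0.961 without E4 and NE1. The chains H2-Aa and H2-Ab1 gave r = 0.996 (permutation p = 1e-05, adjusted 5.33e-05) and rho = 0.988 (p = 3e-05, adjusted 0.00048), and r = 0.983 without E3 and NE1. These 3 relations held without the outlying tumors.

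H2-K1 followed H2-D1 with r = 0.927 (permutation p = 0.00056, adjusted 0.00149) and rho = 0.794 (p = 0.00881, adjusted 0.0201), and r = 0.697 without E1 and E5. For Nlrc5 and H2-K1, the coactivator and a target, the values were r = 0.332 (permutation p = 0.334, adjusted 0.428) and rho = 0.455 (p = 0.19, adjusted 0.277), and r = 0.774 without NE3 and NE4. The relation of Nlrc5 to H2-K1 was thus not detected over all 10 tumors and depended on NE3 and NE4. Nlrc5 and B2m gave r = 0.323 (permutation p = 0.348, adjusted 0.428) and rho = 0.273 (p = 0.447, adjusted 0.477), and r = 0.0591 without NE3 and NE4.

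The class I gene H2-K1 and the class II gene H2-Ab1 gave r = 0.365 (permutation p = 0.272, adjusted 0.396) and rho = 0.418 (p = 0.231, adjusted 0.307), and r = 0.556 without E1 and E5, and H2-K1 and B2m gave r = 0.206 (permutation p = 0.538, adjusted 0.574) and rho = 0.285 (p = 0.426, adjusted 0.477), and r = 0.461 without E1 and E5. Neither of these 2 relations was detected, and no other pair of a class I and a class II gene was tested.

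Against cell markers, H2-Ab1 and Csf1r, the receptor that marks macrophages, gave r = 0.957 (permutation p = 0.00028, adjusted 0.000928) and rho = 0.879 (p = 0.00161, adjusted 0.00644), and r = 0.759 without E3 and NE1. H2-Ab1 and Cd79a, a B cell receptor component at 0.17 to 1.37 CPM, gave r = 0.765 (permutation p = 0.0029, adjusted 0.00663) and rho = 0.830 (p = 0.00474, adjusted 0.0126), and r = 0.750 without E3 and NE1. H2-Ab1 and Ptprc gave r = 0.870 (permutation p = 0.00979, adjusted 0.0174) and rho = 0.648 (p = 0.0489, adjusted 0.087), and r = 0.309 without E3 and NE1. Without NE1 alone r was 0.467, so that this relation rests largely on NE1. H2-Ab1 and Flt3, a dendritic cell receptor, gave r = 0.773 (permutation p = 0.0183, adjusted 0.0293) and rho = 0.491 (p = 0.154, adjusted 0.246), and r = 0.305 without E3 and NE1. Here r was 0.337 without NE1 alone, so that the relation rests on that tumor. H2-K1 and Ptprc gave r = 0.0853 (permutation p = 0.786, adjusted 0.786) and rho = 0.212 (p = 0.56, adjusted 0.56), and r = 0.517 without E1 and E5. The pair H2-DMb1 and H2-DMb2, which share sequence, gave r = 0.940 (permutation p = 0.00029, adjusted 0.000928) and rho = 0.830 (p = 0.00457, adjusted 0.0126), and r = 0.796 without E4 and NE1. Within-group deviations gave r of 0.996 for Ciita and H2-Ab1, 0.933 for H2-K1 and H2-D1 and 0.984 for H2-Ab1 and Csf1r.

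**Figure D4:**
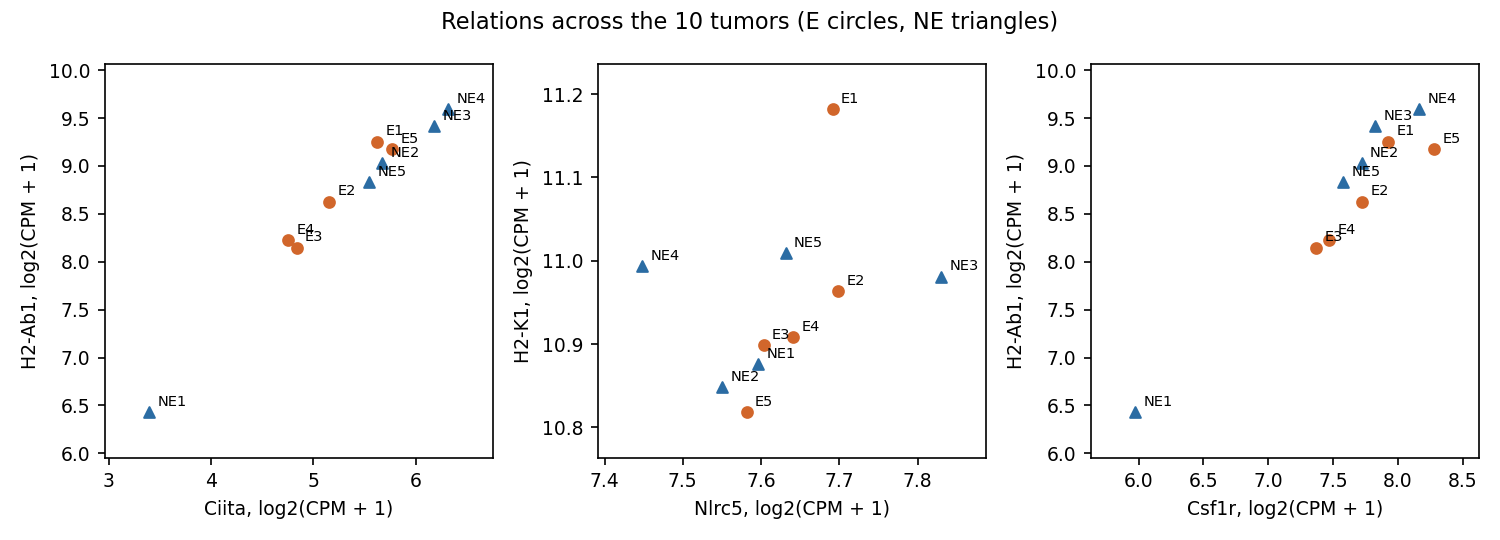
Log2(CPM + 1) of Ciita against H2-Ab1, Nlrc5 against H2-K1 and Csf1r against H2-Ab1 in the 5 E tumors (circles) and 5 NE tumors (triangles), each point labelled by tumor. The left and right panels rise together, with NE1 far below the other tumors (r = 0.986 and 0.957), whereas the middle panel (r = 0.332) spans a far narrower range with NE4 and NE3 at its left and right ends.

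The wider pathway was read from 4 further lists, in which 0 genes had an unadjusted p of at most 0.05 in either direction, beside 2.29% of all genes that were lower and 2.57% that were higher. In the list of 8 genes of peptide supply (immunoproteasome subunits, the PA28 activator and chaperones of the endoplasmic reticulum, led by Calr), the median log2 fold change was -0.061. The immunoproteasome subunit Psmb8 had an FPKM of 49.9, 44.9, 41.3, 44.4 and 38.9 in E1 to E5 and 44.9, 41.6, 46.3, 42.5 and 45.9 in NE1 to NE5. It was as even over the tumors as the class I heavy chains, and Psmb9 and Psmb10 spanned 30.4 to 41.6 and 66.7 to 89.2 FPKM.

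The list of 8 genes of the class II pathway outside the MHC (proteases, a thiol reductase, a ubiquitin ligase and costimulators) had a median log2 fold change of 0.025 and was led by Ctss. Cathepsin S (Ctss), which cuts the invariant chain, had an FPKM of 603, 466, 389, 480.4 and 617 in E1 to E5 and 175, 470.4, 602, 605 and 554 in NE1 to NE5. NE1 was again the lowest tumor, and the other 9 lay within a 1.59-fold range. Marchf1, the ligase that removes class II from the surface, stood at 0.776 FPKM in NE1 and 2.24 to 4.22 elsewhere, and the costimulator Cd86 at 2.76 and 6.53 to 10.9 FPKM. Lgmn, an endosomal protease, differed less, with 148 FPKM in NE1 and 184 to 294 in the others.

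Of the 16 regulators by interferon signalling and the RFX and NF-Y factors, led by Jak1 in CPM, 7 had a log2 fold change above 0 and 9 below 0 (median -0.016). Rfx5, which binds the X box of class I and class II promoters, had an FPKM of 3.0, 3.18, 2.93, 3.01 and 3.39 in E1 to E5 and 3.06, 2.92, 2.77, 2.40 and 3.26 in NE1 to NE5. NE1 lay inside this range, and Rfxap and Rfxank spanned 5.65 to 7.82 and 1.68 to 2.36 FPKM. Ifng, the cytokine that induces both classes, had an FPKM of 5.95, 0.953, 2.47, 1.5 and 1.85 in E1 to E5 and 1.37, 1.90, 3.23, 2.42 and 2.67 in NE1 to NE5. E1, the tumor with the highest class I levels, was the highest for Ifng as well, and its part was not tested. Of the 7 class I relatives outside the H2 genes, 5 were tested, Procr was the most abundant in CPM and Azgp1 had 0 reads. Procr had a log2 fold change of -0.22 (SE 0.10, FDR 0.897 with edgeR) and Fcgrt, the neonatal Fc receptor, ranged from 9.52 in NE1 to 38.4 FPKM in E5.

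The promoter sequences of class I and class II genes were set side by side. Both classes are known to carry an X box, bound by RFX, and a Y box, bound by NF-Y, through which CIITA and NLRC5 act, and class I promoters carry in addition an interferon response element and a kappa B site. RefSeq promoters (GRCm38.p6, 250 bases before to 50 after the start site) were matched by symbol for 35 members. Cd74, on chromosome 18, was left out of this search, and H2-Ab1 was not among the 35. The class II counts below therefore cover neither of these genes. On both strands, 4 motifs were searched, ATTGG for the Y box, ACTGATG for a part of the X region, GAANNGAAA or GAAANNGAA for the interferon element and GGGGATTCC for the kappa B site. Their letters and the spacing given below were chosen after the promoters had been read, and in the sequences shown no match overlaps a match of another motif.

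ATTGG was found in 19 of 22 class I genes and in 8 of 8 class II genes, beside 41.1% of all 27025 genes. ACTGATG was found in 11 of 22 and 3 of 8, beside 3.69%. The interferon element was found in 10 of 22 class I genes and 0 of 8 class II genes, beside 16.8%. GGGGATTCC was found in 4 of 22 class I genes, H2-K1, H2-D1, H2-Q6 and H2-Q7, and in 0 of 8 class II genes, beside 0.296%. In 5 class I genes (H2-D1, H2-M3, H2-Q4, H2-Q6 and H2-Q7) and 3 class II genes (H2-Eb1, H2-Eb2 and H2-DMb1), ACTGATG was followed on the same strand by ATTGG at a distance of 29 or 30 bases between their first bases, an arrangement held by 10 of all genes (0.0370%), these 8 among them. Since this window was set from the members themselves, the share is description and no test. A match describes the letters of the window and does not show a bound site.

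The promoters of 3 class II genes are shown to set this arrangement beside that of H2-D1 and B2m, whose levels varied far less. They lie at chr17:34305617-34305916 on the forward strand (H2-Eb1), chr17:34152941-34153240 on the forward strand (H2-DMb1), chr17:34287774-34288073 on the reverse strand (H2-Aa), chr17:35262844-35263143 on the forward strand (H2-D1) and chr2:122147437-122147736 on the forward strand (B2m), in GRCm38.p6 coordinates from RefSeq. Each is written from 5′ to 3′ on the strand of its gene, and capitals mark the matches of the 4 motifs.
H2-Eb1: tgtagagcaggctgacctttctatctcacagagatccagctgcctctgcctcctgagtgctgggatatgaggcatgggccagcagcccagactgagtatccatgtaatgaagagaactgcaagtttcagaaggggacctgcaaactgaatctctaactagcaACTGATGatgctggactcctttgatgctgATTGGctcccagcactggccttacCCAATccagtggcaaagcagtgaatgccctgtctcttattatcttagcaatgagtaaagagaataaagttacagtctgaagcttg
H2-DMb1: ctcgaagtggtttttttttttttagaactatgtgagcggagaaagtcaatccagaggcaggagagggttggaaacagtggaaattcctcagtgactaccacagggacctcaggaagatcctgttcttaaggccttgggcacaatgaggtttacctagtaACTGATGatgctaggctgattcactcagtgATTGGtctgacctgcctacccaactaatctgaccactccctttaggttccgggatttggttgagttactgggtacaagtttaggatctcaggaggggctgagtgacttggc
H2-Aa: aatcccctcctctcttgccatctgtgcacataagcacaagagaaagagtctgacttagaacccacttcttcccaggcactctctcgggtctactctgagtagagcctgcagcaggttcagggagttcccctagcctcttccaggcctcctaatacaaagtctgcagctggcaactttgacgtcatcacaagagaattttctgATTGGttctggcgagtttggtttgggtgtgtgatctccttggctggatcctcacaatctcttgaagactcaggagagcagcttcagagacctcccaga
H2-D1: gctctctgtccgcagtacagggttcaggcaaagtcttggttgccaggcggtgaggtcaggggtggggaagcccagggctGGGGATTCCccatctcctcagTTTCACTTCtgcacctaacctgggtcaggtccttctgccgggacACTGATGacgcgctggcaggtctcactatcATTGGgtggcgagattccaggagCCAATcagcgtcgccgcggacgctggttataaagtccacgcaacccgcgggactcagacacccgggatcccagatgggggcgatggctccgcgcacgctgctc
B2m: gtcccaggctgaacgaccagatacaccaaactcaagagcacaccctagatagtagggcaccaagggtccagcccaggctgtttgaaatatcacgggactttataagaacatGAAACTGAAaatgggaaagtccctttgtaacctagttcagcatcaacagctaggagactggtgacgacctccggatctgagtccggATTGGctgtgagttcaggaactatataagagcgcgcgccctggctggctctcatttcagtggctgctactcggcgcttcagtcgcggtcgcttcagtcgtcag
H2-Eb1 and H2-DMb1 hold ACTGATG followed by ATTGG, and H2-D1 holds GGGGATTCC and the interferon element ahead of the same pair. The interferon element of H2-D1 is read from the other strand. Of the 4 motifs H2-Aa holds ATTGG alone, and an X box with letters other than ACTGATG would not have been found. B2m holds the interferon element (GAAACTGAA) and ATTGG. In H2-Eb1 and H2-D1 a further Y box, written CCAAT, lies on the other strand. The X region match begins 88 bases before the start site in H2-Eb1, 91 in H2-DMb1 and 106 in H2-D1.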

How the data were processed

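RNA of 10 tumors (5 E, 5 NE) was sequenced as paired-end libraries. By the study's methods the authors aligned reads with Hisat2 2.0 and estimated expression with Stringtie 1.3.0. The methods name a rat assembly, while the gene identifiers are those of mouse, and the genome build of the table and the use of strand are not given in the sources used here. The authors deposited counts per gene and FPKM (the count scaled by gene length and counted reads), and FPKM recomputed from counts, lengths and totals equalled the deposited FPKM.

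E and NE were compared on counts with edgeR 4.0.16 in R 4.3.3 (TMM, filterByExpr by group, quasi-likelihood test, Benjamini-Hochberg over the 13517 genes tested), and genes were called from a fold change of 2 upward with the FDR no higher than 0.05. Tested on simulated data, negative binomial counts with the mean levels and dispersions of these libraries in which 200 of 13517 genes were changed by a log2 of 1.2, the fit recovered 138 at an FDR of at most 0.05 and made 7 false calls. The depth was 15045613 to 23092251 counted reads. Alternatives were the edgeR exact test, DESeq2 1.42.0, limma 3.58.1 (voom with sample weights, and trend on log2(FPKM + 1)), library sizes without TMM, 2 other filters, a block for the replicate number, each tumor left out in turn, E5 and NE4 left out together and class I reads summed. Correlations and permutation tests used Python 3.11.15 with scipy 1.17.1 and pandas 2.3.3. Shared stretches of 50 bases were counted in GENCODE M21 transcripts, and promoters came from RefSeq (GRCm38.p6).

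Members and lists were chosen with earlier results of these data known. Named genes were all H2- members with a mean FPKM of at least 1, the 9 other members, members and pathway genes with an unadjusted p of at most 0.05, the most abundant gene of each marker list and the genes of the 16 correlations. Other genes named in the report, such as H2-M2, H2-Ea, H2-Oa, H2-Eb2, Psmb8, Ifng, Krt8 and Xcr1, and the fit without NE1 as a result of its own, were chosen after their values were seen. The 16 members that did not pass the filter were left out of the edgeR quasi-likelihood test, and no tumor was left out of the comparison. The fit with no filter on low counts took in 42 members. All 47 entered DESeq2, where the 5 with 0 reads in every tumor could not be given a p.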

Additional observations from a re-analysis of the deposited data

Results flagged for a closer look

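In 82 groups of 5 tumors, the FPKM of a gene was examined for a tumor far from the others of its group, and 2 were found, where chance alone flags about 1 in 20, or 4.1 of 82. H2-Oa, a chain of the inhibitor of H2-DM, stood at 0.850 FPKM in E5 and at 0.345 to 0.457 in the other E tumors. H2-Q10, a non-classical class I gene known from the liver, stood at 1.09 FPKM in E5 and at 0.0987 to 0.298 in the other E tumors. Both are genes of low level in the tumor that also had the highest sums of fibroblast and neutrophil markers, and the cause was not tested.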

How the results depend on the processing

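Under every alternative, 0 members were called, also at an FDR of at most 0.05 with no minimum fold change. The number of members with an unadjusted p of at most 0.05, which was 1, became 0 with the edgeR exact test and without both E5 and NE4, and 3 with limma-voom and sample weights (Erap1, H2-M2 and Tapbpl), where 13.3% of all genes reached this p. Leaving out 1 tumor at a time gave 0 to 6 members, with 6 without NE1. The study's text speaks of matched pairs, but neither its methods nor the labels say which tumors were paired or how. Each gene's deviations from its group mean, on log2 CPM, correlated between tumors of the same number at -0.266 to 0.323. With a block for this number, 0 members had an unadjusted p of at most 0.05, and whether the numbers stand for the pairs could not be settled.

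Over all settings the median log2 fold change of classical class I genes ran from -0.027 to 0.070 and that of class II chains from -0.49 to 0.052. Of 494 values of single genes, 32 had the opposite sign. With limma-trend on log2(FPKM + 1) these were the log2 fold changes of Cd74 (0.033), H2-Eb1 (0.047), H2-Ab1 (0.057) and H2-Q7 (0.015). With limma-voom they were H2-M3 (-0.037) and H2-Q6 (-0.087), and without E5 and NE4 they were Tap1 (0.011), H2-T23 (0.017) and H2-Q7 (0.029). When 1 tumor was left out at a time, the log2 fold changes that changed sign ran as follows: H2-K1 -0.039 to 0.050, H2-D1 -0.014 to 0.081, B2m -0.15 to 0.00017, Tap1 -0.11 to 0.013, Tapbp -0.014 to 0.064, Nlrc5 -0.010 to 0.086, H2-M3 -0.0021 to 0.057, H2-T22 -0.037 to 0.063, H2-T24 -0.038 to 0.30, H2-Q6 -0.12 to 0.34, H2-Q7 -0.17 to 0.10, Cd74 -0.46 to 0.030 and H2-Ab1 -0.47 to 0.0044. The correlation of H2-K1 with Ptprc was -0.0516 on log2(FPKM + 1) and -0.291 without NE1. The cause of these changes was not tested.

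Depth limits the 16 members below the filter, whose read totals are given and whose differences are not reported. With 5 tumors per group and the spread seen, class II differences inside the intervals given could not be detected. Bulk tissue does not assign RNA to tumor or host cells, and RNA was not compared with protein at the cell surface.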
